A study of Caenorhabditis elegans with 4 samples.

Results

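The arms of chromosome V in Caenorhabditis elegans are described here as 1090 genes, 673 on the left arm and 417 on the right arm, of 13027 genes with usable values in the series. The members were chosen by position and by mean normalized count. A gene was taken when its start in the Ensembl WBcel235 gene models lay below 6000000 or above 16000000 on chromosome V and when its mean normalized count was at least 10 in both of the authors' deposited tables. The 1551 chromosome V genes between these positions that passed the same count minimum are called the centre. Just inside the left boundary lies cpg-4 (start 5996416) and just outside it fos-1 (start 6003601). At the right boundary nhr-63 (start 16002588) is the innermost arm gene, and nhr-50 (start 15997726) the nearest gene of the centre.

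RNA was sequenced from L2/L3 larvae raised for 24 h at 22 °C from starved L1 larvae and then given 1 mM auxin for 2 h. In strain AM11 auxin depletes topoisomerase II, from a top-2::degron::GFP allele, and DPY-27, a subunit of the dosage compensation condensin, from dpy-27::degron::GFP. In strain AM12 it depletes topoisomerase I, from top-1::degron::GFP, and DPY-27 from the same kind of allele. Both are called the TOP-2/DPY-27 and TOP-1/DPY-27 depletion below, and their tables the TOP-2 and the TOP-1 table. Each strain gave 2 libraries, and the authors set both against a common control, CA1200 on auxin for 2 h, a strain known for making the auxin receptor TIR1 in somatic tissues from the eft-3 promoter. DPY-27 was tagged in both depletion strains, no group here lacks only 1 of its paired proteins, and degron strain and control also differ in their tags. The control libraries were not analysed here as samples, since the authors' deposited tables hold 1 value per gene and comparison and none per sample.

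Topoisomerases release the twist that builds up when polymerases and other motors move along DNA. TOP-1 nicks a single strand, while TOP-2 passes a whole duplex through another. The autosomes of C. elegans have a central region rich in conserved, widely expressed genes and arms that recombine more often, hold more repeats, carry more H3K9 methylation and touch the nuclear envelope. Chromosome V arms are known for large, fast-changing gene families: chemoreceptors, nuclear hormone receptors, F-box proteins, C-type lectins and enzymes that detoxify foreign compounds.

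The genes that could be measured are a filtered view of the arms. Of 2425 protein-coding gene models on the arms, 1066 (44.0%) are members, against 1541 of 2569 (60.0%) in the centre. Chemoreceptors make up 552 of the arm models (22.8%) and 338 of the centre models (13.2%), yet just 17 of the 552 on the arms reached the count minimum. Another 578 arm genes were listed in both tables but fell under that minimum, and 522 in the centre, so that 65.3% of listed arm genes and 74.8% of listed centre genes passed. The arm genes closest above the minimum are the histone gene his-1 (mean normalized counts of 10.3 and 10.0 in the TOP-2 and TOP-1 tables), C25A6.1 (10.9 and 10.0) and F11A5.15 (10.0 and 14.3). Those closest below it are Y40B10A.5 (12.8 and 9.98), Y40B10B.1 (9.95 and 29.1) and ZK218.11 (9.94 and 11.9). The arm members spanned a median of 2531 bp, against 2147 bp in the centre, with exonic lengths of 1341 and 1375 bp. Neighbouring starts lay a median of 5602 bp apart on the left arm and 7915 bp apart on the right arm, against 3947 bp in the centre. Members of expanded families made up 209 arm genes (19.2%) and 151 centre genes (9.74%).

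Depth per library is not known from these tables. The median arm gene had a mean normalized count of 149 in the TOP-2 table and 152 in the TOP-1 table, against 237 and 240 in the centre, and the median standard error (SE) of an arm fold change was 0.48 and 0.45 on the log2 scale, against 0.44 and 0.41. Genes were called higher or lower than CA1200 where the authors' DESeq2 test gave them an adjusted p below 0.05, with adjustment over the genes of a whole table. Those p-values measure only the spread between libraries, and no source used here says that the libraries came from separate cultures. The count minimum that chose the members uses the same tables, so the counts below describe the arms, and no difference between arms and centre was tested. Fold changes below are always depletion over control, in log2 units, given with their SE.

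After TOP-2/DPY-27 depletion the chromosome V arms held changes in both directions. Of 1090 arm genes 192 (17.6%) were called higher and 155 (14.2%) lower, against 14.4% higher and 8.47% lower over all 13027 genes and 215 genes higher (13.9%) and 202 lower of 1551 in the centre. All genes here include 2067 on chromosome X, of which 25.7% were higher and 2.56% lower. On the outer parts of chromosomes I to IV 10.7% were higher and 8.97% lower. On the inner parts 11.8% were higher and 8.01% lower. The median fold change was -0.12 on the arms, -0.15 in the centre and -0.04 over all genes. The median absolute fold change was 0.77 on the arms, 0.63 in the centre, 0.51 on the outer parts of chromosomes I to IV and 0.55 over all genes. Arm genes had lower counts and larger SEs, and among genes with mean counts of 30 to 100 the order turned, with 0.82 on the arms and 0.96 in the centre. On the left arm 114 genes were called higher and 108 lower, and on the right arm 78 higher and 47 lower.

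After TOP-1/DPY-27 depletion more arm genes were called in each direction, 237 (21.7%) higher and 216 (19.8%) lower. The share over all genes was 17.2% higher and 14.5% lower, and in the centre 17.4% higher and 13.3% lower. Chromosome X, which is part of all genes, had 36.1% higher and 4.02% lower. The median fold change was -0.02 on the arms and in the centre. With a count minimum of 100 it was -0.31 on the arms, 0.20 below the centre on the log2 scale, with 12.8% of arm genes higher and 29.6% lower. The median absolute fold change was 0.91 on the arms, 0.62 in the centre and 0.65 over all genes. Outer parts of chromosomes I to IV, taken as the same fractions of each chromosome's length, stood elsewhere: 11.5% of their genes were higher and 22.8% lower, with a median of -0.35. In the inner parts of those chromosomes 12.3% were higher and 11.9% lower, with a median of -0.11. More frequent lower calls in outer than in inner parts were thus not particular to chromosome V. On chromosome V the left arm had 144 genes higher and 128 lower, and the right arm 93 higher and 88 lower. Both depletions share the control libraries, so their values are given side by side.

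The balance of higher and lower calls differed between bands of mean count, and the total share called did not follow the count in steady steps. Among arm genes with a mean normalized count of 10 to 30, 27.5% were higher and 8.29% lower after TOP-2/DPY-27 depletion, against 20.1% and 6.15% in the centre. At 30 to 100, 24.5% of arm genes were higher and 5.53% lower, against 23.8% and 10.5% in the centre, a smaller share called on the arms than in the centre. Among arm genes at 300 or more, 12.0% were higher and 21.0% lower, against 8.02% and 16.6% in the centre. After TOP-1/DPY-27 depletion 27.8% of arm genes at 10 to 30 were higher and 6.17% lower, against 25.3% and 6.32% in the centre. At 30 to 100, 32.1% of arm genes were higher and 8.68% lower, against 25.5% and 12.1% in the centre. At 300 or more 14.7% of arm genes were higher and 31.5% lower, against 10.0% and 15.6% in the centre. Chromosomes I to IV had 22.1% higher and 4.79% lower at 10 to 30 in the TOP-2 table. In the TOP-1 table they had 29.5% and 5.67% in that band. At 300 or more they had 4.99% and 9.89%, then 4.77% and 20.3%. Arm medians accordingly ran with the count band, at 0.54, 0.19, -0.18 and -0.27 for TOP-2 and at 0.68, 0.61, -0.05 and -0.39 for TOP-1, low counts to high. The excess of lower calls on the arms over the centre in the TOP-1 table therefore sat in the bands at 100 or more, 23.3% against 13.6% at 100 to 300 and 31.5% against 15.6% above. Whether the count itself plays a part was not tested.

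**Figure D1:**
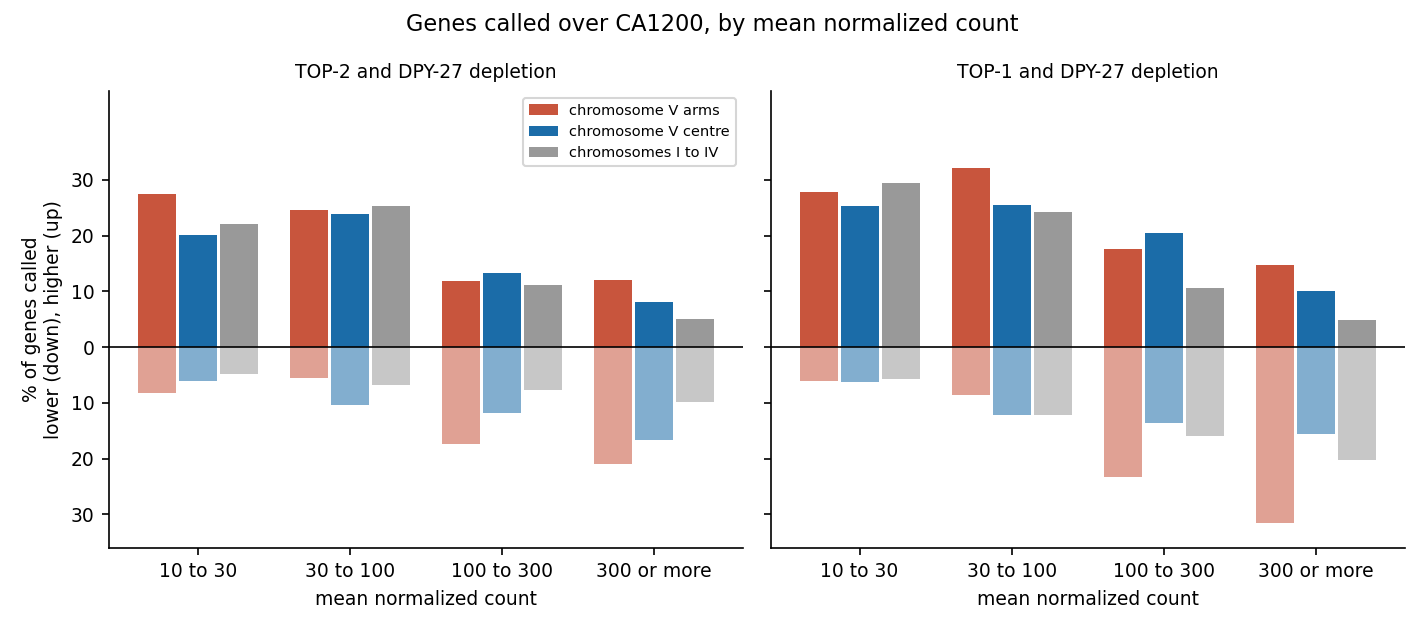
Percent of genes called higher (upward bars) and lower (downward, paler bars) than CA1200 at an adjusted p under 0.05, by mean normalized count, for chromosome V arms, chromosome V centre and chromosomes I to IV, with the TOP-2 table left and the TOP-1 table right. Calls of higher expression are fewer at 300 or more than at 10 to 30, without steady steps between (27.8%, 32.1%, 17.7% and 14.7% of arm genes in the TOP-1 table), and after TOP-1/DPY-27 depletion 31.5% of arm genes at 300 or more were lower, against 15.6% in the centre.

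Calls were spread over both arms, with no steady order towards the chromosome ends. In 1 Mb windows counted outward from the boundary, the share of genes called higher after TOP-2/DPY-27 depletion ran between 8.64% (7 of 81 genes, window 4 of the left arm) and 30.9% (30 of 97 genes, first window of the right arm). After TOP-1/DPY-27 depletion it ran between 10.2% (10 of 98 genes, window 4 of the right arm) and 35.1% (34 of 97, first window of the right arm). The third window of the left arm, with 41 of 124 genes (33.1%) higher and a median of 0.40, came next in the TOP-1 table, and had 23 of 124 higher in the TOP-2 table. Over all genes 14.4% were higher in the TOP-2 table and 17.2% in the TOP-1 table. Windows of 1 Mb in the centre ran from 10.8% to 21.4% higher and from 12.0% to 25.9% higher. In both tables the highest of these was the last, next to the right boundary, with 24 and 29 of 112 genes. Lower calls after TOP-1/DPY-27 depletion were most frequent in the third window of the right arm, 23 of 77 genes (29.9%), where the median was -0.39. Over all genes 14.5% were lower in that table.

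**Figure D2:**
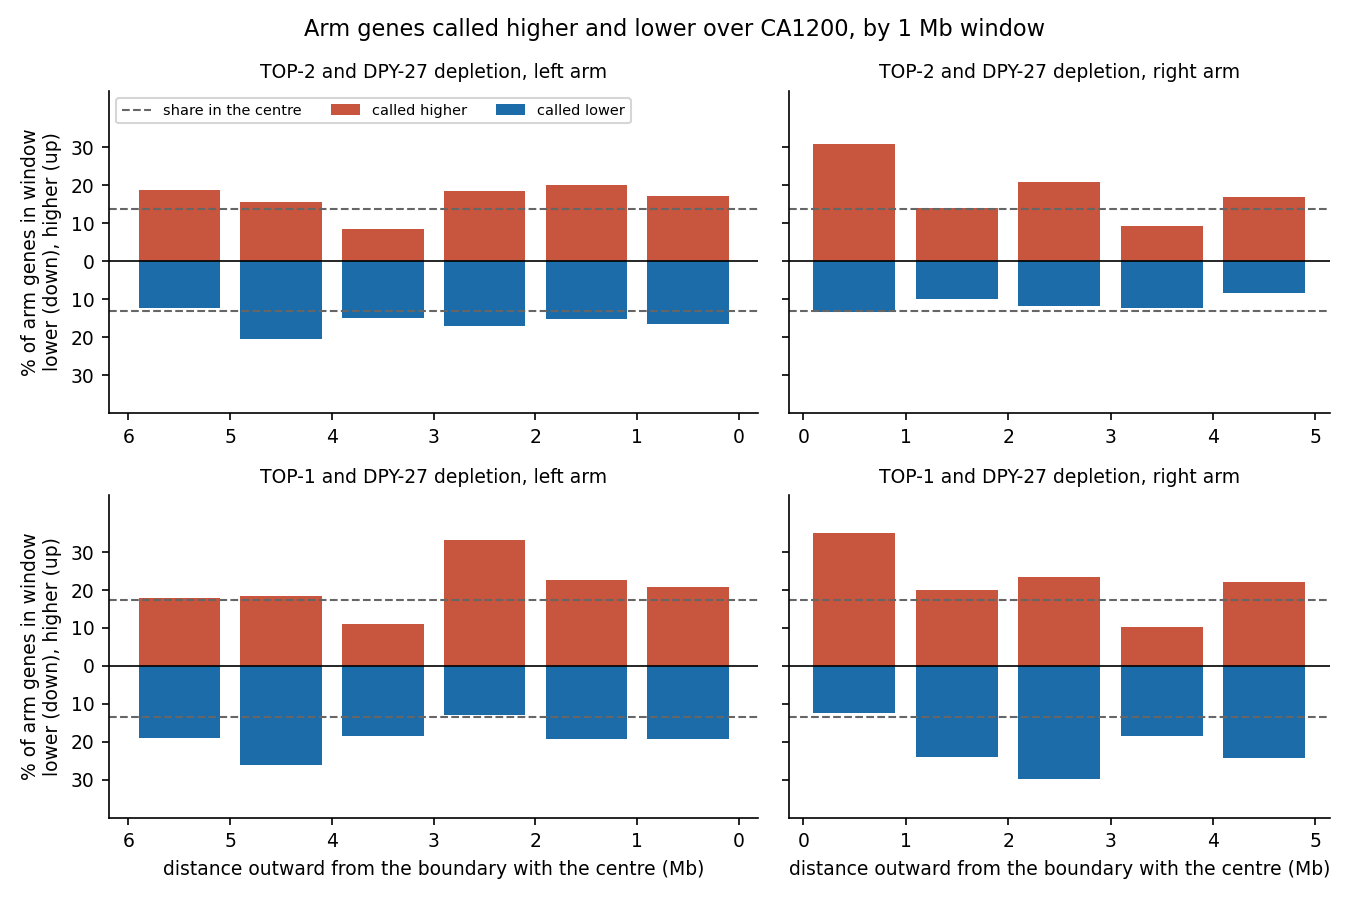
Percent of arm genes called higher (up) and lower (down) than CA1200 in 1 Mb windows, by distance outward from the boundary with the centre (Mb), for the left and right arms after each depletion. Dashed lines give the shares in the chromosome V centre. The first right-arm window has the tallest bars, 30.9% higher after TOP-2/DPY-27 depletion and 35.1% after TOP-1/DPY-27 depletion.

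The first window of the right arm holds a block of C-type lectin genes that were all called higher. C-type lectins are secreted or membrane proteins with a sugar-binding fold, many of them linked to defence in the worm. After TOP-2/DPY-27 depletion 13 members in a row, from clec-25 to fbxa-44 (V:16843241-16890749), were called higher, with fold changes between 3.91 and 7.32 and a median of 4.80. After TOP-1/DPY-27 depletion the run had 15 members, from tni-3 to fbxa-44 (V:16833638-16890749), between 1.62 and 9.48 with a median of 5.72. Its members were clec-25, clec-36, clec-26, clec-37, clec-31, clec-24, clec-28 and clec-33, followed by F09C6.3, F09C6.11, F09C6.12, ifas-2 and the F-box gene fbxa-44. In the authors' deposited tables clec-28 stood at 5.16 ± 0.71 after TOP-2/DPY-27 depletion (adjusted p = 1.35e-11) and at 5.55 ± 0.64 after TOP-1/DPY-27 depletion (adjusted p = 4.17e-16), with mean normalized counts of 88.8 and 113. The ifas-2 gene stood at 6.53 ± 1.66 and 9.0 ± 1.5 there, with means of 21.4 and 114. At the near end of the block tni-3, a troponin I of muscle, had 1.21 ± 0.33 and 1.62 ± 0.33 in the authors' deposited tables and clec-40 had 2.62 ± 1.15 (adjusted p = 0.0887) and 3.48 ± 0.99 (adjusted p = 0.0025). The block ended sharply. T20B3.14, the member before tni-3, had -1.11 ± 0.36 and -0.68 ± 0.38, and nhr-116, the member after fbxa-44, had -0.32 ± 0.41 and -0.72 ± 0.43, by the authors' deposited tables. All these clec genes are close relatives, and no source used here says how reads matching several of them were counted. Their values are uncertain one by one, as are those of the other tandem families below.

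Most of the block was near the count minimum. Apart from tni-3, its members' mean normalized counts ran from 10.8 (F09C6.11) to 88.8 (clec-28) in the TOP-2 table, and from 19.5 (clec-40) to 200 (F09C6.3) in the TOP-1 table. Members with such low means and such large fold changes, as F09C6.11 in the TOP-2 table (7.01), can have passed the minimum only through the depletion libraries, so they had to differ, and the length of the run, its fold changes and the share in the first window rest partly on them. Without these 15 genes 15.9% of right-arm genes were higher after TOP-2/DPY-27 depletion in place of 18.7%, and 19.4% after TOP-1/DPY-27 depletion in place of 22.3%.

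Runs of at least 4 neighbouring members called in one direction were otherwise short. The arms had 6 runs in the TOP-2 table, holding 3.30% of arm genes, against 4 runs with 1.16% of genes in the centre and 15 runs with 0.809% on chromosomes I to IV. The TOP-1 table had 10 arm runs with 5.78% of genes, against 8 runs with 2.51% in the centre and 48 runs with 2.63% on chromosomes I to IV. The arm shares include the block above, with 13 genes in the TOP-2 table and 15 in the TOP-1 table. Some of its members, and some of other runs, passed the minimum only through the depletion libraries. All these shares follow from how many genes were called in each region as well as from their order, and they were not tested against each other.

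Several runs were made of related genes. The left-arm UDP-glucuronosyltransferases ugt-9, ugt-8, ugt-14 and ugt-13, enzymes that attach sugars to lipophilic compounds, formed a run with H23N18.5 (V:4896048-4912381) that was lower in both tables. In the authors' deposited tables ugt-8 had -3.16 ± 0.37 and -3.03 ± 0.33, and ugt-14 had -3.97 ± 0.53 and -2.14 ± 0.46. The next genes of the family outward, ugt-11 and ugt-12, had 0.53 ± 0.51 and 0.13 ± 0.38 in the authors' deposited TOP-2 table and 0.85 ± 0.43 and -0.07 ± 0.35 in the TOP-1 table, and passed the test in neither. They were chosen after their values were seen. The peptide genes nlp-34, nlp-31, nlp-30 and nlp-29 (V:3978825-3984847) formed a run called higher after TOP-2/DPY-27 depletion, between 1.39 and 2.78. nlp-29 and nlp-31 encode antimicrobial peptides made in the epidermis upon infection or wounding. In the authors' deposited TOP-1 table nlp-34 stood at 0.12 ± 0.43 (adjusted p = 0.874), and nlp-31, nlp-30 and nlp-29 at 0.87 ± 0.34, 1.02 ± 0.36 and 1.91 ± 0.50, each called higher. On the far right arm ftr-1, fog-2, fbxa-114 and Y113G7B.12 (V:20196971-20212684) ran between 2.76 and 4.17 in the TOP-2 table and between 3.17 and 3.85 in the TOP-1 table. Their mean normalized counts ran from 33.0 to 150 in the TOP-2 table. fog-2 encodes an F-box protein that lets hermaphrodites make sperm, and ftr-1 and fog-2 are near-identical neighbours whose reads could be split. Longer still was the run from Y37H2C.1 to txt-8, with 8 genes higher between 1.22 and 7.95 in the TOP-1 table, the first 5 of which formed a run in the TOP-2 table.

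The longest run called lower was a stretch of long genes. After TOP-1/DPY-27 depletion 9 right-arm members in a row, from dpy-21 to nova-1 (V:17936282-18081957), were lower by between -1.90 and -0.97, and their median span was 11820 bp. Its first gene, dpy-21, encodes the histone H4K20 demethylase of the dosage compensation complex, and in the authors' deposited tables it stood at -0.00 ± 0.38 after TOP-2/DPY-27 depletion and at -1.10 ± 0.36 after TOP-1/DPY-27 depletion (adjusted p = 0.0107). The others include gck-3, a kinase, snx-6, a sorting nexin, prp-6, a splicing factor, and ebp-1, a protein of growing microtubule ends. In the authors' deposited tables gck-3 had -0.13 ± 0.32 and -1.33 ± 0.32, and prp-6 -0.13 ± 0.32 and -1.22 ± 0.32. None of the 9 passed the test in the TOP-2 table, where they ran from -0.92 (lon-8) to -0.00 (dpy-21). On either side the run ended with usp-50, at -0.12 ± 0.34 and -0.38 ± 0.34, and fbxa-106, at 4.85 ± 1.37 and 4.76 ± 1.46, in the authors' deposited tables. The fbxa-106 start lies at V:18082402, next to the end of nova-1.

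**Figure D3:**
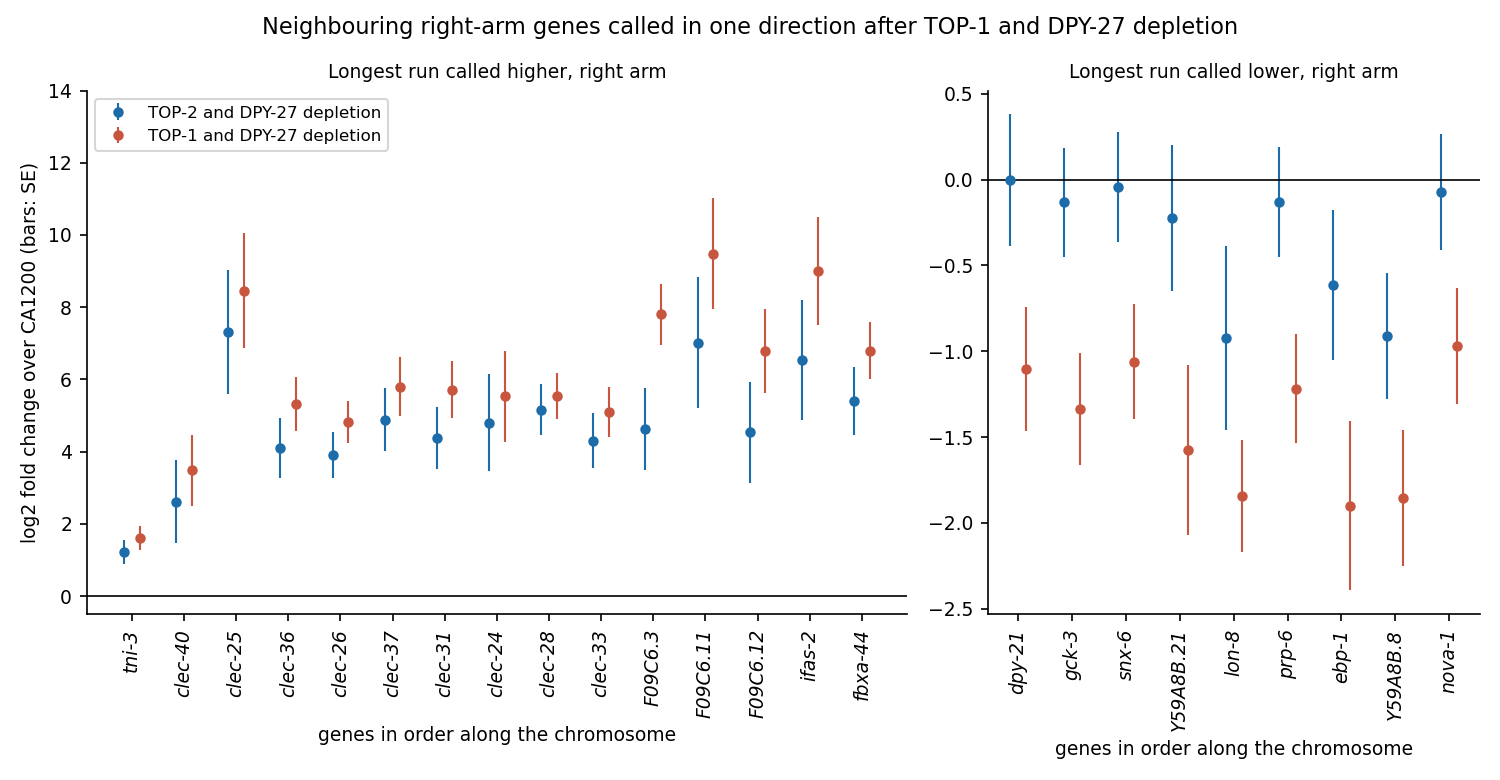
Log2 fold change over CA1200 with its SE for each gene of the longest right-arm run called higher (left, 15 genes) and lower (right, 9 genes) in the TOP-1 table, in chromosome order, with the TOP-2 table in blue and the TOP-1 table in red. Genes from clec-25 to fbxa-44 lie at 3.91 or more in both tables, while genes from dpy-21 to nova-1 lie between -1.90 and -0.97 after TOP-1/DPY-27 depletion and between -0.92 and -0.00 after TOP-2/DPY-27 depletion.

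Long arm genes were lower after TOP-1/DPY-27 depletion beyond that run. Of 76 arm genes that span at least 10 kb, 46 (60.5%) were called lower and 1 higher, with a median of -1.02. The centre had 17 of 60 such genes lower (28.3%, median -0.44) and chromosomes I to IV 287 of 681 (42.1%, median -0.76). Of the same 76 arm genes 8 were lower and 5 higher in the TOP-2 table, with a median of -0.11, against 5 lower and 4 higher of 60 in the centre. On the right arm 28 of 42 long genes were lower in the TOP-1 table and on the left arm 18 of 34. Taken as TOP-2 minus TOP-1, the difference lay above 0 for 74 of the 76 arm genes, with a median of 0.92, and for 48 of 60 centre genes, with a median of 0.30. On chromosomes I to IV it lay above 0 for 645 of 681 such genes, with a median of 0.66. Where the mean count reached 100 in both tables, 43 of 67 long arm genes (64.2%) were lower in the TOP-1 table. At that minimum 15 of 53 long genes in the centre (28.3%) and 271 of 621 on chromosomes I to IV (43.6%) were lower. The span classes were chosen after the data had been seen, and gene span, count and position were not separated by a test.

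At the other end, 399 arm genes spanned less than 2 kb. After TOP-1/DPY-27 depletion 125 of them (31.3%) were higher and 42 lower, with a median of 0.44, against 152 of 709 higher (21.4%) and a median of 0.09 in the centre. After TOP-2/DPY-27 depletion 94 of the 399 (23.6%) were higher and 56 lower, with a median of -0.03, against 112 of 709 higher (15.8%) and a median of -0.20 in the centre. The count minimum touches this class: at a mean of 100 or more in both tables, 44 of 194 short arm genes were higher and 32 lower after TOP-1/DPY-27 depletion, with a median of 0.03. After TOP-2/DPY-27 depletion 29 of these 194 were higher and 42 lower, with a median of -0.24, so that lower calls outnumbered higher ones.

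**Figure D4:**
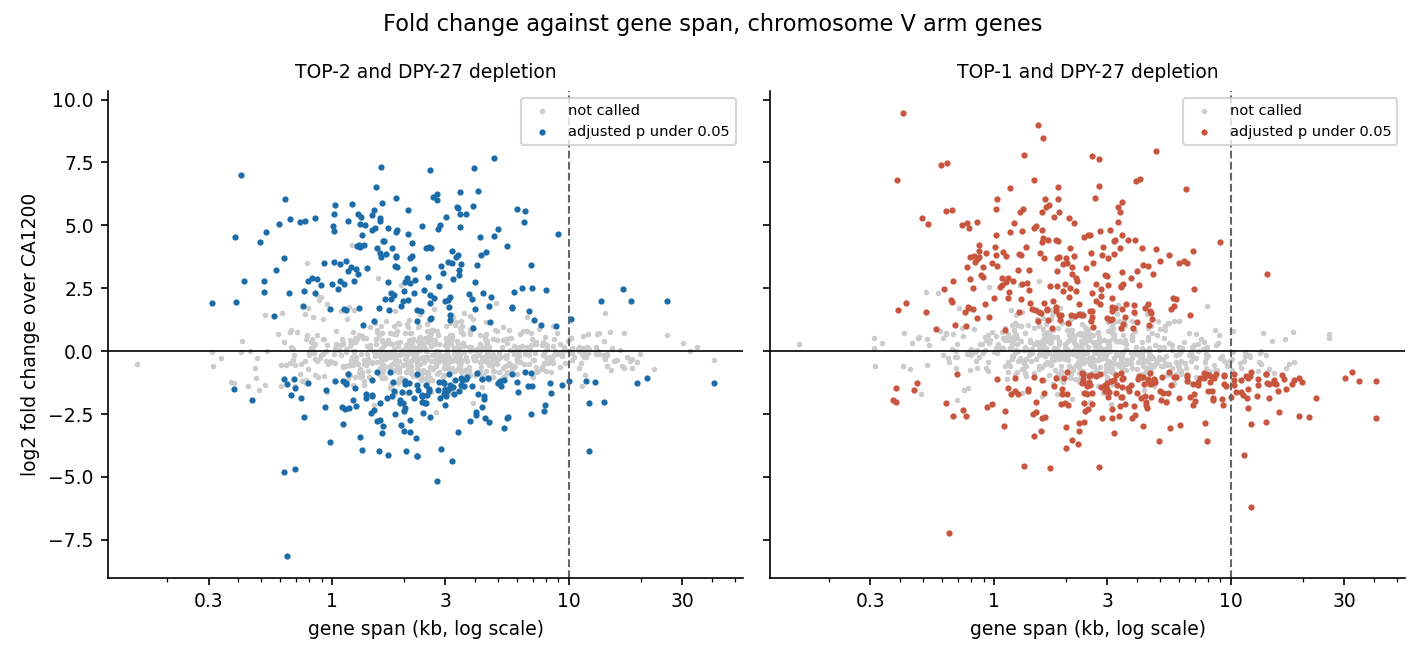
Log2 fold change over CA1200 against gene span (kb, log scale) for the 1090 arm genes after TOP-2/DPY-27 depletion (left) and TOP-1/DPY-27 depletion (right), with called genes coloured and a dashed line at 10 kb. Right of that line 46 of 76 genes are called lower in the TOP-1 panel, against 8 of 76 in the TOP-2 panel.

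Among the longest arm genes, chosen after their values were seen, dkf-2 and kcnl-1 span 40.8 and 40.7 kb. kcnl-1, a small-conductance potassium channel, had -1.25 ± 0.38 after TOP-2/DPY-27 depletion and -2.65 ± 0.38 after TOP-1/DPY-27 depletion in the authors' deposited tables. dkf-2, a protein kinase D, had -0.35 and -1.2 there. emb-4, a helicase that binds introns, spans 34.7 kb and had 0.17 ± 0.38 and -1.19 ± 0.36 by the authors' deposited tables. slo-1, the large-conductance potassium channel of neurons and muscle, had -0.34 ± 0.37 and -2.43 ± 0.38 (adjusted p = 6.68e-09). The muscle gene ketn-1, which encodes kettin and spans 25.9 kb, ran the other way, at 0.62 and 0.51 in the authors' deposited tables, and was not called in the TOP-1 table.

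The lowest long genes in the TOP-1 table were ptr-22 and mlt-11. ptr-22, a Patched-related protein, fell by 3.97 ± 0.40 after TOP-2/DPY-27 depletion (adjusted p = 1.40e-20) and by 6.21 ± 0.48 after TOP-1/DPY-27 depletion (adjusted p = 3.14e-36), in the authors' deposited tables. mlt-11, a protease inhibitor needed for the moult and among the most abundant arm transcripts with mean normalized counts of 15702 and 11752, was at -1.39 ± 0.66 (adjusted p = 0.125) in the authors' deposited TOP-2 table and fell by 4.13 ± 0.52 in the TOP-1 table (adjusted p = 5.90e-14). Markers of the hypodermis, which makes the cuticle, stood lower in these libraries as well: 2 of 5 fell and none rose after TOP-2/DPY-27 depletion (median -1.01), and 3 of 5 fell and none rose after TOP-1/DPY-27 depletion (median -1.57). In whole larvae less RNA from hypodermal cells and less RNA per cell cannot be told apart, and the part of these markers in the arm values was not tested. Other tissue lists moved less. Of 6 intestine markers 1 was higher after TOP-2/DPY-27 depletion, then 2 were higher and 1 lower after TOP-1/DPY-27 depletion. Of 4 body wall muscle markers 0 were called, then 1 was higher.

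Genes of families linked to the pharynx, the feeding organ, made up 4 of the 10 highest named arm genes in the TOP-2 table. In the authors' deposited TOP-2 table abu-8, pqn-94, phat-5 and pqn-13 stood at 5.90 ± 0.48, 5.83 ± 0.46, 5.80 ± 0.44 and 5.58 ± 0.72. abu and pqn genes encode glutamine- and asparagine-rich proteins, several of them of the pharyngeal cuticle, and phat genes encode secreted proteins of the pharyngeal glands. In the authors' deposited TOP-1 table these 4 genes stood at 3.72 ± 0.53, 5.08 ± 0.42, 6.04 ± 1.33 and 3.50 ± 0.46. All 4 phat genes on the arms, phat-3, phat-7, phat-5 and phat-4, were higher in each table, with medians of 5.23 and 4.89, a group looked at after its values were seen. All 8 phat genes measured genome-wide were higher as well, with medians of 4.95 and 4.82. The other 2 families were less uniform. Of 4 pqn genes on the arms 3 were higher in each table, against 18 of 46 genome-wide, then 17 higher and 4 lower. Of 4 abu genes on the arms 3 were higher, then 2, against 7 of 10 genome-wide, then 6 higher and 2 lower. Of 8 pharynx markers genome-wide 6 were higher in each table, with medians of 5.72 and 5.29. Germline markers were higher too, 11 of 12 in each table, with medians of 4.13 and 3.53. The arms carry 3 of these markers: pgl-3, a P granule protein, had 4.09 ± 0.62 and 3.52 ± 0.62, syp-1, of the synaptonemal complex, had 3.21 ± 0.61 and 2.57 ± 0.63, and pha-4, the FoxA factor of the foregut, had 0.30 ± 0.34 and -0.00 ± 0.36. More RNA from these tissues relative to the common control and a change per cell cannot be told apart, and their part in the arm values was not tested.

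Across gene families the arms showed different balances. Of 24 C-type lectins on the arms 10 were higher and 6 lower after TOP-2/DPY-27 depletion (median 0.86), and 12 higher and 5 lower after TOP-1/DPY-27 depletion (median 1.81). Over all 97 C-type lectins measured genome-wide 34 were higher and 14 lower, then 52 higher and 10 lower, with medians of 0.67 and 1.61. Apart from the 9 lectins in the right-arm block, 2 of the other 15 were higher and 6 lower after TOP-2/DPY-27 depletion (median -1.36), and 3 higher and 5 lower after TOP-1/DPY-27 depletion (median -0.26). Among those, clec-42 rose by 6.02 ± 0.56 and 7.65 ± 0.43 in the authors' deposited tables, with mean normalized counts of 538 and 1582. clec-233 fell by 3.63 ± 0.43 and by 2.11 ± 0.39, and clec-1 fell by 2.21 ± 0.31 and by 2.22 ± 0.30, again in the authors' deposited tables.

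Nuclear hormone receptors, ligand-gated transcription factors greatly expanded in nematodes, formed the largest arm family above the count minimum, and few passed the test. Of 77 on the arms 3 were higher and 8 lower in the TOP-2 table (median -0.22), and 2 higher and 11 lower in the TOP-1 table (median -0.07). Over all 186 measured nuclear hormone receptors 10 were higher and 15 lower, then 10 higher and 24 lower, with medians of -0.23 and -0.15. The lowest on the arms was nhr-237, at -2.99 ± 0.55 and -2.63 ± 0.45 in the authors' deposited tables. Chemoreceptors, the odour and taste receptors of sensory neurons, were mostly lower where they were called: 7 of 17 fell and 1 rose after TOP-2/DPY-27 depletion, and 5 fell and 2 rose after TOP-1/DPY-27 depletion, with medians of -1.02 and -0.95. Over all 59 measured chemoreceptors 18 fell and 2 rose, then 17 fell and 6 rose. srr-4, by far the best measured of them with mean normalized counts of 1570 and 1744, had -1.48 ± 0.31 (adjusted p = 3.73e-05) and -0.84 ± 0.37 (adjusted p = 0.0671) in the authors' deposited tables. Of the 6 neuron markers none was higher in either table, 1 was lower after TOP-2/DPY-27 depletion and 3 after TOP-1/DPY-27 depletion.

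Enzymes of detoxification were called in both directions. Of 27 cytochrome P450 genes on the arms 4 were higher and 7 lower after TOP-2/DPY-27 depletion, and 6 higher and 5 lower after TOP-1/DPY-27 depletion. Over all 63 measured P450 genes 7 were higher and 15 lower, then 11 higher and 12 lower. cyp-35A5, of a family induced by foreign compounds, fell by 4.17 ± 0.66 and by 2.85 ± 0.55 in the authors' deposited tables, while cyp-34A5 rose by 2.39 ± 0.76 and 3.71 ± 0.61. cyp-33C3 and cyp-33C5, neighbours on the left arm, went opposite ways: in the authors' deposited tables cyp-33C3 had 2.02 ± 0.47 and 2.51 ± 0.42, and cyp-33C5 had -2.26 ± 0.48 and -1.70 ± 0.43. Among 15 UDP-glucuronosyltransferases 3 were higher and 4 lower in the TOP-2 table, and 3 higher and 6 lower in the TOP-1 table, with ugt-42 the highest at 7.19 ± 1.57 and 7.78 ± 1.52 in the authors' deposited tables. Its mean normalized counts were 33.6 and 48.6, so it can have passed the minimum only through the depletion libraries. Of all 60 measured UDP-glucuronosyltransferases 12 were higher and 12 lower, then 15 higher and 15 lower. Of 6 glutathione S-transferases on the arms 3 were lower in the TOP-2 table and 1 in the TOP-1 table, and none was higher. Genome-wide, of 40 measured, 5 were higher and 10 lower, then 12 higher and 3 lower. gst-21 stood at -3.93 ± 0.42 and -4.58 ± 0.45 in the authors' deposited tables.

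Of 14 arm genes with nlp, flp or ins names, grouped as neuropeptides by name alone though nlp-29 and nlp-31 encode antimicrobial peptides, 9 were higher and 2 lower in each table, with medians of 1.71 and 1.31, against 1 higher and 2 lower, then 2 higher and 1 lower, of 9 in the centre. Split after the values were seen, the 6 neighbouring genes nlp-27, nlp-28, nlp-29, nlp-30, nlp-31 and nlp-34 gave 5 of those higher in the TOP-2 table and 4 in the TOP-1 table. Of the remaining 8 arm genes 4 were higher and 2 lower, then 5 higher and 2 lower. Genome-wide 55 of 116 were higher and 29 lower after TOP-2/DPY-27 depletion, and 59 higher and 22 lower after TOP-1/DPY-27 depletion. nlp-25 and nlp-26 on the far right arm had 2.84 ± 0.59 and 2.80 ± 0.47 in the authors' deposited TOP-2 table and 2.78 ± 1.13 and 2.89 ± 0.49 in the TOP-1 table. flp-34, an FMRFamide-like peptide gene, fell by 2.63 ± 0.38 and by 3.06 ± 0.38 in the authors' deposited tables. Antimicrobial genes numbered 5 on the arms, of which 3 were higher in each table. Genome-wide, of 49 measured, 21 were higher and 1 lower, then 27 higher and 1 lower. lys-7, a lysozyme, rose by 3.17 ± 0.55 and 4.75 ± 0.46 in the authors' deposited tables, and abf-4, an antibacterial factor, by 4.32 ± 1.27 and 5.29 ± 1.99. cnc-4 and cnc-3, caenacins that neighbour each other, differed: in the authors' deposited tables cnc-4 had 2.36 ± 0.52 and 1.57 ± 0.48, and cnc-3 had -1.27 ± 0.32 and -0.76 ± 0.36 (adjusted p = 0.0956 in the TOP-1 table).

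**Figure D5:**
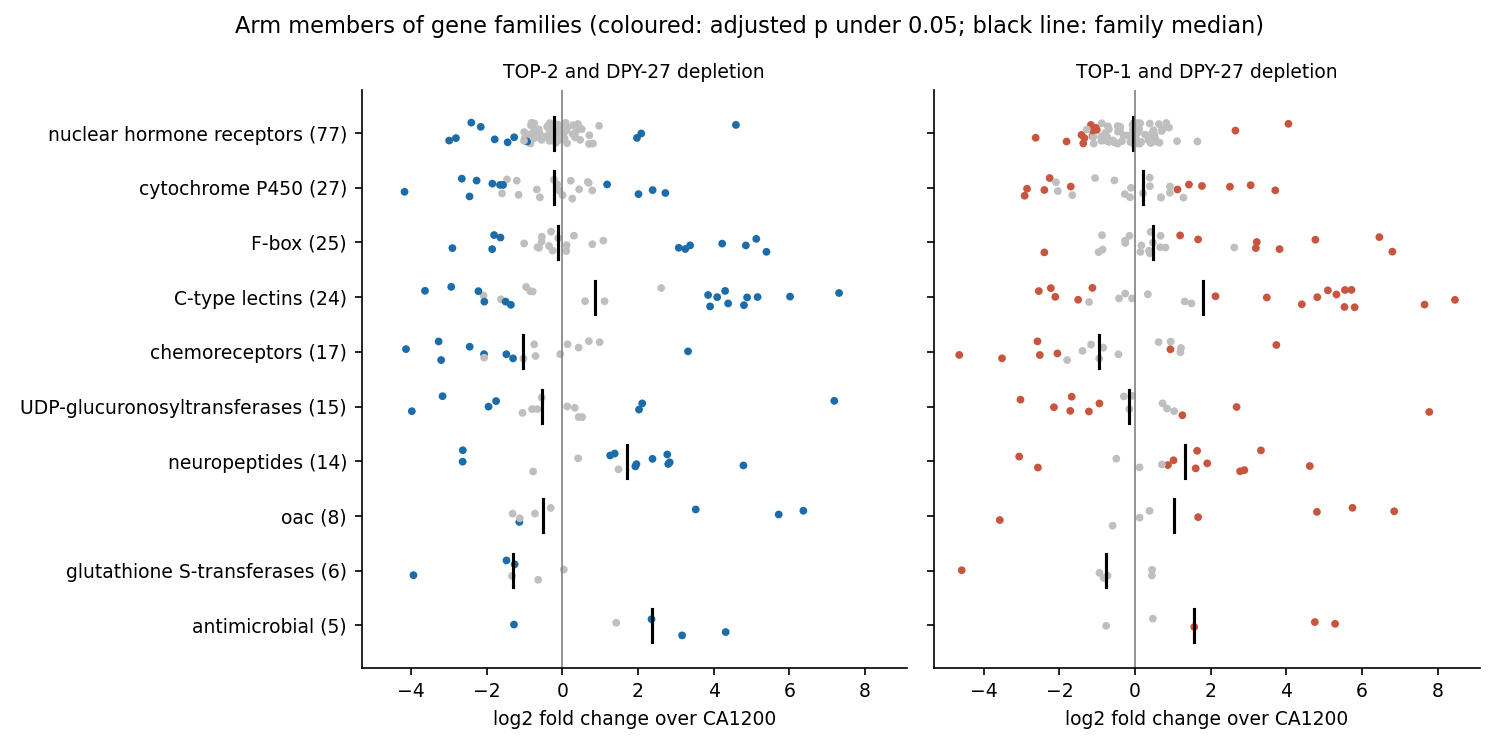
Log2 fold change over CA1200 of arm genes by family after TOP-2/DPY-27 depletion (left) and TOP-1/DPY-27 depletion (right), for families with at least 5 measured arm members (number in brackets). Each point is a gene, coloured where its adjusted p is under 0.05, and the black line is the family median: 0.86 and 1.81 for C-type lectins, -0.22 and -0.07 for nuclear hormone receptors, and 1.71 and 1.31 for neuropeptides by name.

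Smaller families on the arms gave mixed values. F-box genes, adaptors that mark proteins for destruction, were 7 higher and 4 lower of 25 in the TOP-2 table, and 8 higher and 1 lower in the TOP-1 table, with fbxa-136 at 5.13 ± 0.72 and 6.46 ± 0.64 in the authors' deposited tables. Its mean normalized counts were 73.9 and 176, so it may have passed the minimum only through the depletion libraries. Of all 103 measured F-box genes 16 were higher and 6 lower, then 21 higher and 2 lower. Acyltransferase-like oac genes were 3 higher and 1 lower of 8, then 4 higher and 1 lower, against 5 higher and 3 lower of 21 genome-wide, then 7 higher and 5 lower. oac-32 had 5.72 ± 0.64 and 5.75 ± 0.63 in the authors' deposited tables, and oac-1 had -1.31 ± 0.71 (adjusted p = 0.188) and -3.57 ± 0.41 (adjusted p = 2.73e-16). With means of 122 and 120, oac-32 may likewise have passed the minimum only through the depletion libraries. Serpins, protease inhibitors, were 2 higher of 3 in each table, and skr genes, partners of F-box proteins, 1 and 2 higher of 3. Genome-wide 2 and 3 of 6 serpins were higher, and 2 and 4 of 11 skr genes. Of 4 histone genes on the arms none was called in the TOP-2 table and 2 were lower in the TOP-1 table, of 3 transthyretin-related genes 2 were lower in each table and 1 higher in the TOP-1 table, and of 2 collagens 1 was lower in the TOP-2 table and none called in the TOP-1 table. Genome-wide 1 of 27 histone genes was higher and 2 lower, then 2 higher and 8 lower. The 45 transthyretin-related genes leaned the other way from the arms, with 12 higher and 5 lower, then 22 higher and 3 lower. Of 97 collagens 12 were higher and 25 lower, then 11 higher and 23 lower. Of 2 pals genes on the arms only pals-32 was called, higher in the TOP-1 table, and of 18 genome-wide 1 was higher, then 5. Ribosomal protein genes on the arms numbered 3, of which rpl-11.1 alone was called, at 1.78 ± 0.38 and 1.54 ± 0.38 in the authors' deposited tables. No bath, math or btb gene model by name lies on the arms.

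The small heat shock genes hsp-16.2 and hsp-16.41, chaperones induced by heat and other proteotoxic stress, stood among the lowest arm genes of the TOP-2 table. hsp-16.2 fell by 4.81 ± 0.70 after TOP-2/DPY-27 depletion (adjusted p = 2.79e-10) and by 2.08 ± 0.57 after TOP-1/DPY-27 depletion (adjusted p = 0.00156) in the authors' deposited tables. hsp-16.41 fell by 4.67 ± 0.76 after TOP-2/DPY-27 depletion and stood at -1.93 ± 1.23 (adjusted p = 0.245) after TOP-1/DPY-27 depletion. The pair share much of their sequence and are uncertain one by one. Lower still were R09E12.9, at -8.13 ± 0.47 and -7.23 ± 0.41, and T10B5.8, at -5.18 ± 0.43 and -4.61 ± 0.39, in the authors' deposited tables, a pair of left-arm genes without a symbol that were chosen after their values were seen. Both were well measured, with mean normalized counts of 1818 and 1763 for R09E12.9 and of 421 and 414 for T10B5.8.

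Genes that act in anchoring the arms to the nuclear envelope and in H3K9 methylation were measured too, and none of the 17 lies on the chromosome V arms. set-32, a SET domain gene, was the one called, higher in each table at 4.21 ± 0.77 and 3.77 ± 0.85 in the authors' deposited tables. Its mean normalized counts were 38.9 and 28.4, so it may have passed the minimum only through the depletion libraries. Over all genes 14.4% and 17.2% were called higher. The remaining 16 were not called, among them the methyltransferases met-2 (0.25 ± 0.39 and -0.19 ± 0.37) and set-25 (-0.05 ± 0.38 and -0.44 ± 0.39) and the anchor cec-4 (-0.10 ± 0.38 and -0.08 ± 0.39).

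The direct comparison of the depletions found 1 arm gene. The difference, TOP-2 minus TOP-1, was tested by a Wald z over 13027 genes with Benjamini-Hochberg adjustment, with both SEs taken as independent, which overstates the error because the control is common. No arm gene was higher after TOP-2 than after TOP-1 depletion at an adjusted p under 0.05 and 1 was lower, against 0.0691% higher and 0.0461% lower over all genes. It is T20D4.12 on the left arm, a gene without a symbol, which stood at 0.66 ± 0.54 in the TOP-2 table (mean normalized count 71.6) and at 3.99 ± 0.41 in the TOP-1 table (mean 453) of the authors' deposited tables. At an unadjusted p under 0.05, 48 arm genes were higher and 49 lower (8.90% together), against 10 and 36 in the centre (2.97%) and 406 and 196 over all genes (4.62%). With an assumed correlation of 0.5 between the fold changes, 29 arm genes were higher (2.66%) and 22 lower (2.02%) at an adjusted p under 0.05. The shares over all genes and in the centre were not computed at that correlation. Whether the arms stand apart there is therefore not known. The median difference was -0.08 on the arms, -0.11 in the centre and 0.04 over all genes.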

How the data were processed

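RNA-seq of 4 samples, 2 libraries per depletion, entered the series through 2 result tables, 1 per depletion. The mean normalized counts are a signal averaged over the libraries of a comparison, as deposited by the authors. The log2 fold changes and their SEs were deposited by the authors, as were a score (the Wald statistic) and the p-value and adjusted p-value of each gene, per the file headers, which use the field names of DESeq2. Tools named without a role in the submitters' processing notes are DESeq2 1.30.0, HTSeq 0.13.5, HISAT2 2.2.1, Cufflinks 2.2.1 and CASAVA 1.8. The authors' genome build and the strand setting of the count are not given in the sources used here. Gene names were matched to Ensembl release 115 gene models of WBcel235 (98.1% of 17491 names), which gave positions, spans and symbols. No values per sample exist in these tables, so no spread of single libraries and no count of libraries showing a direction can be given.

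Members and gene lists were chosen with earlier results of these data known. Of 2673 chromosome V genes at the count minimum 32 had no gene model and were left out. Named genes are, per table, the 10 highest and 10 lowest called arm genes that have a symbol and reach a mean of 50, and the best called gene per family and direction, the hsp-16 genes, boundary genes and runs. Genes shown outside this rule were chosen after their values were seen, among them kcnl-1, dkf-2, ketn-1, slo-1, emb-4, nlp-25, abf-4, cnc-4 and cyp-33C5. Medians, counts and the test of the difference were computed with Python 3.11.15, pandas 2.3.3, numpy 2.4.6 and scipy 1.17.1. Alternatives were other count minimums, boundaries, positions, biotypes, families and thresholds. No promoter or protein sequence is shown.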

Additional observations from a re-analysis of the deposited data

Results flagged for a closer look

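T20D4.12 on the left arm was the single arm gene whose log2 fold changes differed between the depletions by the test of the difference itself (Wald z with Benjamini-Hochberg adjustment over 13027 genes). TOP-2 minus TOP-1, the difference was -3.33, from 0.66 ± 0.54 and 3.99 ± 0.41 in the authors' deposited tables. The cause was not tested.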

How the results depend on the processing

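No paired analysis was possible because the deposited tables hold no value per sample, and for the same reason no library could be left out in turn. Shares called moved by at most 1.44 percentage points and medians by at most 0.021 with boundaries at 5 and 17 Mb, and by at most 0.446 points and 0.0098 with protein-coding genes only. Placing genes by their 5′ end gave 1091 arm genes in place of 1090, so little could move. Asking for a log2 fold change of at least 1 as well moved shares by at most 2.29 points. For the shares of each depletion the count minimum moved most, by up to 9.75 points. Medians of each depletion moved most in single bands of mean count, by up to 0.70, and by up to 0.29 with other minimums. For the calls of TOP-2 minus TOP-1 the assumed correlation moved most. With a minimum of 100, 10.5% of arm genes were higher and 19.9% lower after TOP-2/DPY-27 depletion (median -0.25), and 12.8% higher and 29.6% lower after TOP-1/DPY-27 depletion (median -0.31, minus the centre -0.20), while for TOP-2 minus TOP-1 0.0% were lower, the median turned to 0.024 and that minus the centre was 0.13. With no minimum 11.6% were lower after TOP-2 and 16.3% after TOP-1 depletion, and the medians turned to 0.0034 and 0.27 (TOP-1 minus the centre 0.19). By mean normalized count (10 to 30, 30 to 100, 100 to 300, 300 or more), TOP-2 medians were 0.54, 0.19, -0.18 and -0.27, minus the centre 0.37, 0.12 and -0.051 in the lower bands. TOP-1 medians were 0.68, 0.61 and -0.39 in the first, second and last band, minus the centre 0.12, 0.35, -0.10 and -0.23 over all bands. Without expanded families the TOP-2 minus TOP-1 median was -0.0054, and 0.086 minus the centre. At an adjusted p under 0.01, 14.2% were higher and 8.44% lower after TOP-2 depletion, and 18.0% higher and 12.9% lower after TOP-1 depletion. A correlation of 0.5 between fold changes gave 2.66% higher and 2.02% lower for the difference, with no share over all genes computed beside it. The cause of these moves was not tested. Long-gene shares at a minimum of 100 and right-arm shares without the lectin block, both chosen after seeing the data, stand beside their results. Low counts limit single genes: the median SE was 0.93 for arm genes at 10 to 30, against 0.36 at 300 or more, in the TOP-2 table.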
